A study of Mus musculus with 8 samples.

Results

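Interferon-stimulated genes (ISGs) outside the IFIT, Schlafen, GBP and nucleic acid sensor families were examined here as a module of 35 genes, out of 32285 genes counted. The genes were listed by name, with earlier results of these data known. Of the 35 genes, 33 were analysed and Mx1 and Mx2 were not analysed here. Messenger RNA was counted as unique molecular identifiers (UMIs) in single cells of 4 droplet libraries, made from MC38 colon carcinoma tumors or from the blood of mice bearing them, with local irradiation of the tumor (IR, 20 Gy in 1 dose, cells taken on day 3) or without it (control). Each library held 2 pools of C57BL/6J mice, marked with hashtag antibodies against CD45 and MHC class I: Ythdf2 fl/fl mice, called WT (hashtag B0301), and Lyz-Cre;Ythdf2 fl/fl mice, called cKO (hashtag B0302), so that every animal carried floxed Ythdf2 and only the cKO carried Cre, which the lysozyme promoter drives in myeloid cells. A cell with at least 20 hashtag UMIs was labelled WT where B0301 was at least B0302, and cKO where B0302 was at least 4 times B0301. The labels name CD11b+ myeloid cells, the study's methods name a CD45+CD11b+Ly6Chi gate, and the labels used here give no age or sex.

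Type I interferons bind IFNAR1 and IFNAR2, and the kinases JAK1 and TYK2 then activate STAT2, which acts with IRF9 at interferon-stimulated response elements in the promoters of ISGs. The products of the module act at many steps: ISG15 is a ubiquitin-like protein that USP18 removes again, the OAS enzymes make oligoadenylates that switch on RNase L, PKR (Eif2ak2) halts translation on double-stranded RNA, IFITM3 and tetherin (Bst2) act on virus entry and release, and IRF7 with STAT2 and IRF9 amplifies the response. In monocytes, macrophages and neutrophils these genes are widely read as a sign of recent interferon exposure.

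The response element is the sequence that links these genes, and it could be read for part of the module. RefSeq promoter windows (GRCm38.p6, from 250 bases before to 50 bases after the gene start) were matched for 27 of the 33 members, and a spaced core of the element, GAAANNGAAA on either strand, lay in 3.44% of all 32851 windows and in a window of 10 of the 27 members: Isg15, Oas1a, Oas1g, Oas3, Stat2, Ddx60, Trim30a, Eif2ak2, Bst2 and Ifitm3. The 100 bases before the start of 6 members with the core there are shown 5′ to 3′ along the gene, with each match to the core in capitals; overlapping matches form 1 run of capitals, the capitals of Trim30a are the core on the opposite strand, and the matches of Isg15, Oas1a and Oas1g overlap in a row.
Isg15 (chr4:156200819-156200918, reverse strand): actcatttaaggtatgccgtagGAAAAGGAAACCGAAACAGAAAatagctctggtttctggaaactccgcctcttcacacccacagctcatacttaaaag
Oas3 (chr5:120777660-120777759, reverse strand): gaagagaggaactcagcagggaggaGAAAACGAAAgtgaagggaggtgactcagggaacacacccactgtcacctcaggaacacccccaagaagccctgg
Oas1g (chr5:120887614-120887713, reverse strand): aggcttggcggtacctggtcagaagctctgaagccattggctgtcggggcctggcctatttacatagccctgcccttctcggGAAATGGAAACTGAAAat
Oas1a (chr5:120907526-120907625, reverse strand): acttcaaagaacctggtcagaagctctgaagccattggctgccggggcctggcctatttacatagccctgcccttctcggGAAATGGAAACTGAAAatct
Trim30a (chr7:104465194-104465293, reverse strand): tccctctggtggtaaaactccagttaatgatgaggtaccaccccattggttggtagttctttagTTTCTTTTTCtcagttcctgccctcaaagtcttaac
Ddx60 (chr8:61927987-61928086, forward strand): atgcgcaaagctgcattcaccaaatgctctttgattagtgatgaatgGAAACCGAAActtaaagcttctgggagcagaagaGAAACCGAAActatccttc
Oas1a and Oas1g hold the same run of capitals, and the genes themselves are near-identical paralogs, so reads can be split between them and their counts were taken as uncertain. Absence of a match says only that these letters are not in that window. RefSeq windows for Oas2, Usp18, Rtp4, Parp9, Parp14 and Ifi27l2a were not analysed here.

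After removal of empty droplets, poor cells and likely doublets, 26649 cells with a hashtag label were kept, between 2146 and 4421 in each of the 8 groups of library and label. The summed gene UMIs of a group ran from 18428957 to 24269662, and median UMIs per cell from 2918 to 8527, higher in tumor than in blood. The sort was not pure by its markers: neutrophil-like cells, which the gate on Ly6C should hold back, made up 65.7% to 69.7% of blood cells, and 4.67% of tumor control WT and 11.98% of tumor control cKO cells were fibroblast-like. The 3′ tags of Ythdf2 went against the labels, with 33.02 to 53.9 CPM (UMIs scaled to a total of 1e6 per group) in groups labelled WT and 305 to 368 CPM in groups labelled cKO, but a 3′ tag that may lie outside the deleted part checks nothing. Lyz2, whose locus carries the Cre, stood at 5712 CPM or more in groups labelled WT and at 138 CPM or less in groups labelled cKO. The tumor matrices held each other's barcodes: 7327 of 13144 barcodes with at least 500 UMIs in the tumor control matrix had under 20 hashtag UMIs, and all but 2 of these carried hashtags in the tumor IR matrix; the reverse held for 4955 of 4958 in the tumor IR matrix. Such barcodes had no label in that matrix and entered no group from it, while 276 barcodes carried hashtags in both. The overlap also took in barcodes with hashtags, since 12558 barcodes held at least 500 UMIs in both tumor matrices. A tumor cell was thus read as control or IR by the matrix that held its hashtags. What this means for the tumor ratios of IR to control was not tested.

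Every group was 1 sample of pooled mice, so no test was possible: all intervals are 95% intervals of counting error, and a member was counted as past the limit in a comparison when its levels differed at least 2-fold (1 on the log2 scale, with 1 UMI added to each side) and the 2 groups held at least 100 of its UMIs together. In sums over a group, a smaller share of cells that carry a gene and less RNA per cell cannot be told apart; levels within cell classes are given further on.

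Summed over its 33 genes, the module was lowest in tumor control and highest in tumor IR. It took 4994 CPM in tumor control cells labelled WT, 2817 CPM in tumor control cells labelled cKO, 14036 CPM in tumor IR WT and 13286 CPM in tumor IR cKO. In blood it took 7349 CPM in control WT, 7048 CPM in control cKO, 9199.8 CPM in IR WT and 8870.0 CPM in IR cKO. Thus the tumor groups spanned a wide range on both sides of the blood groups, and both IR groups of a tissue lay above both of its control groups. The free RNA in droplets without a cell held 6251 CPM of the module in the control library and 13314 in the IR library of tumor, 7331 in the control library and 9693 in the IR library of blood, and its part in the levels of cells was not tested.

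A few genes made up most of this sum. Ifitm3, which blocks fusion of enveloped viruses, and Ifi27l2a, a gene induced by interferon alpha, were the most abundant members in each group, and with the next gene (Sp100 in blood control, Isg15 elsewhere) they held 59.3% to 71.2% of the module's UMIs. The median member stood at 42.5 CPM in tumor control WT, 27.5 in tumor control cKO, 178 in tumor IR WT and 164 in tumor IR cKO, against 68.6 and 64.8 CPM in blood control and 78.0 and 81.2 CPM in blood IR, WT first. Of the 33 members, 15 had their highest level in tumor IR WT, 11 in tumor IR cKO, 4 in blood IR WT and 3 in blood IR cKO, and none had it in a control group. Levels here are UMIs from transcript 3′ ends, which do not grow with transcript length.

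**Figure D1:**
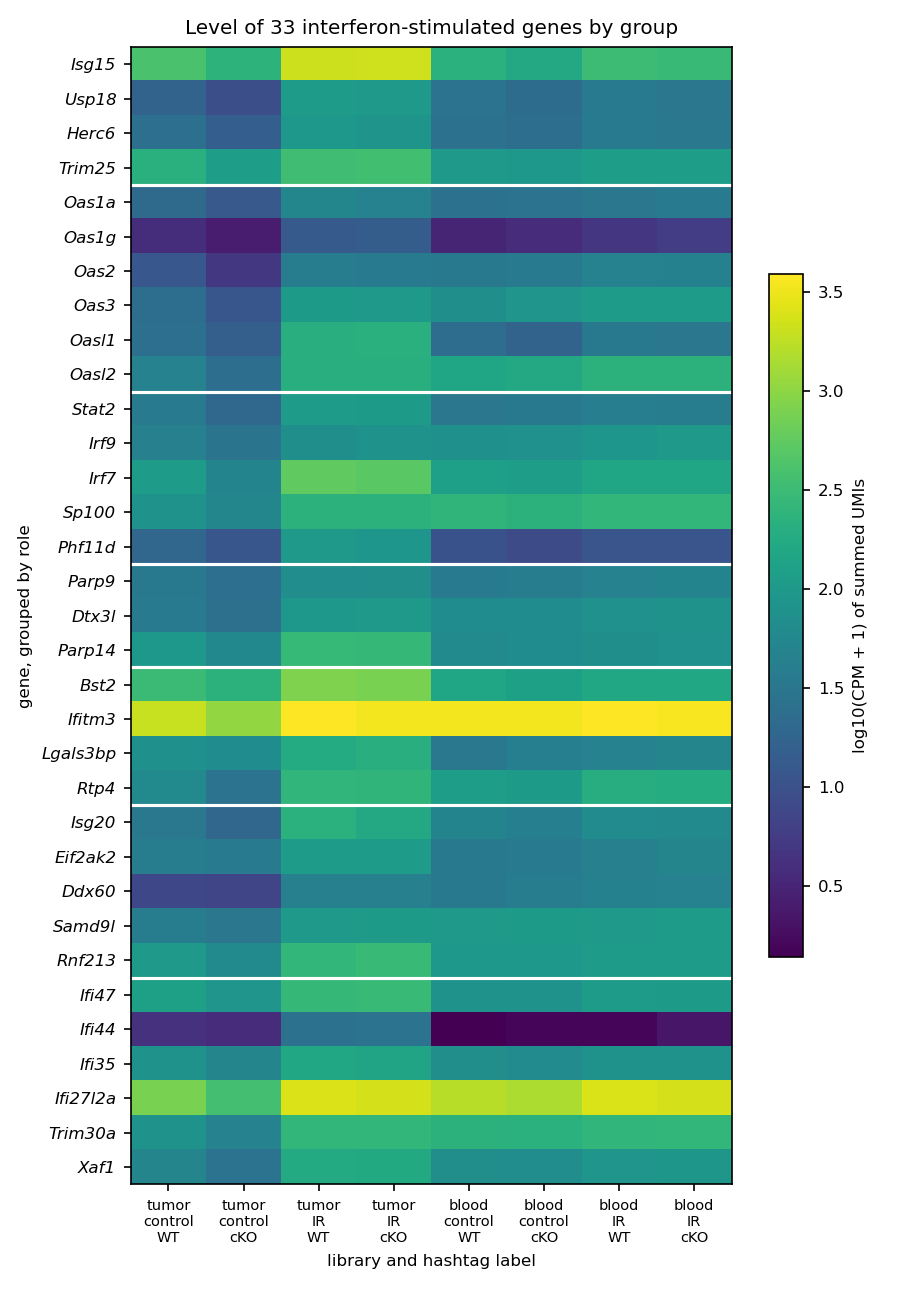
Level of each analysed member (rows, grouped by role) in each of the 8 groups (columns, library and label), as log10 of CPM plus 1, from dark blue (low) to yellow (high). For 26 of the 33 members the highest value is in a column of the irradiated tumors, and Ifi44 is close to 0 in all 4 blood columns.

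The first question was how local irradiation changed the module in the tumor cells of each label. In cells labelled WT, 29 of 33 members were at least 2-fold higher in IR and 0 were lower, where 2.64% of all 10152 genes with enough UMIs were past the limit upward and 3.4% downward. The median member had a log2 ratio of 1.70, against −0.13 for all genes, and the summed module was 2.81-fold (95% interval 2.79 to 2.83) higher. The 4 members short of the limit were Trim25 at 0.65, Irf9 at 0.73, Ifitm3 at 0.95 and Ifi35 at a ratio just under it.

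In cells labelled cKO, 33 of 33 members were at least 2-fold higher in IR, where 5.29% of all genes were past the limit upward and 17.1% downward. The median member had a log2 ratio of 2.51, against −0.18 for all genes, and the summed module was 4.72-fold (95% interval 4.68 to 4.76) higher. The smallest ratio was that of Irf9 at 1.46 and the largest that of Oasl1 at 3.89.

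The ISG15 pathway and the OAS family stood highest among the roles. Isg15, the ubiquitin-like modifier itself (chr4:156199424-156200818, mm10, reverse strand), was at 396 CPM in control and 2112 CPM in IR cells labelled WT, and 236 CPM in control and 2176 CPM in IR cells labelled cKO. Its log2 ratio of IR to control was 2.41 (95% interval 2.38 to 2.45) in WT and 3.20 (95% interval 3.16 to 3.24) in cKO. Usp18, the protease that takes ISG15 off its targets and also damps signalling at IFNAR2, was at 16.1 CPM in control and 105 CPM in IR cells labelled WT, and 8.41 CPM in control and 101 CPM in IR cells labelled cKO. Both IR values of each gene lay several-fold above both control values. Herc6, an ISG15 ligase, had log2 ratios of 1.95 in WT and 2.60 in cKO, while Trim25, the ubiquitin ligase that activates RIG-I, was the least changed of these genes at 0.65 and 1.56. As a role, 3 of 4 were past the limit in WT and 4 of 4 in cKO, with medians of 2.18 and 2.90.

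Oasl1, an OAS-like protein without synthetase activity that is known to restrain translation of Irf7, had the largest ratio of the module. Oasl1 (chr5:114923240-114937915) was at 24.4 CPM in control and 206 CPM in IR cells labelled WT, and 14.3 CPM in control and 212 CPM in IR cells labelled cKO. Its log2 ratios were 3.08 (95% interval 2.95 to 3.22) and 3.89 (95% interval 3.73 to 4.05). Among the active synthetases, Oas3 was at 23.3 CPM in control and 103 CPM in IR cells labelled WT, and 10.4 CPM in control and 100.5 CPM in IR cells labelled cKO. Oas2 was at 10.9 CPM in control and 38.9 CPM in IR cells labelled WT, and 4.04 CPM in control and 36.4 CPM in IR cells labelled cKO. Both were lowest in tumor control cKO. The log2 ratios in WT and cKO were 2.14 and 3.27 for Oas3, 1.83 and 3.16 for Oas2, 2.15 and 3.09 for Oasl2, 2.02 and 3.05 for Oas1g and 1.35 and 1.95 for Oas1a. All 6 OAS genes were past the limit in both labels, with role medians of 2.08 in WT and 3.12 in cKO, although Oas1g and Oas1a cannot be told apart with confidence.

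Among the transcription factors and chromatin proteins, Irf7, the master factor of the later interferon wave, and Phf11d, a PHD finger gene, had the largest ratios. Irf7 (chr7:141262706-141266481) was at 108 CPM in control and 559 CPM in IR cells labelled WT, and 48.2 CPM in control and 499.8 CPM in IR cells labelled cKO, which gave log2 ratios of 2.38 (95% interval 2.31 to 2.44) and 3.37 (95% interval 3.29 to 3.46). Its level in tumor IR exceeded that in every other group. Phf11d had ratios of 2.41 and 3.06, Stat2 of 1.61 and 2.47, Sp100, a nuclear body protein, of 1.49 and 2.12, and Irf9 of 0.73 and 1.46. Stat2 and Irf9, which act together at the response element, thus differed in ratio, with Irf9 the lower of them in both labels.

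Proteins of the membrane and the secreted protein galectin-3-binding protein (Lgals3bp) had smaller ratios, with role medians of 1.36 in WT and 1.72 in cKO. Ifitm3, the most abundant member, was at 2005 CPM in control and 3863 CPM in IR cells labelled WT, and 1069.9 CPM in control and 3399.9 CPM in IR cells labelled cKO, so that it carried a large part of the summed module at a modest ratio of 0.95 and 1.67. Bst2, the tetherin gene, was at 310.1 CPM in control and 844 CPM in IR cells labelled WT, and 226 CPM in control and 773 CPM in IR cells labelled cKO. Rtp4, a chaperone of receptors that also binds viral RNA, was at 61.0 CPM in control and 259 CPM in IR cells labelled WT, and 27.2 CPM in control and 248 CPM in IR cells labelled cKO, log2 ratios of 2.09 and 3.19, the widest of this role. Lgals3bp had ratios of 1.28 and 1.67, and Bst2 of 1.44 and 1.77. The PARP9 partners, the ADP-ribosyl transferases Parp9 and Parp14 and the ubiquitin ligase Dtx3l, were past the limit in both labels, at 1.02 and 1.51 for Parp9, 1.56 and 2.31 for Parp14 and 1.37 and 2.002 for Dtx3l; Parp9 and Dtx3l overlap head to head on chromosome 16 on opposite strands.

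RNA-directed members had role medians of 1.53 in WT and 2.26 in cKO, all 5 of 5 past the limit. Isg20, an exonuclease, had log2 ratios of 2.76 and 3.20, Ddx60, a helicase of RNA sensing, of 2.66 and 2.77, Eif2ak2 of 1.53 and 1.67, Samd9l of 1.38 and 1.75 and Rnf213 of 1.47 and 2.26. Of the remaining interferon-induced genes, Ifi44 was scarce in control at 3.26 CPM in WT and 2.82 CPM in cKO, and stood at 25.7 and 27.0 CPM in IR. Ifi27l2a was at 772 CPM in control and 2504 CPM in IR cells labelled WT, and 364 CPM in control and 2304 CPM in IR cells labelled cKO. Xaf1, a pro-apoptotic gene, had ratios of 1.83 and 2.61, Trim30a of 1.73 and 2.51, Ifi47, an interferon-inducible GTPase, of 1.11 and 1.78 and Ifi35 of just under 1 and 1.504, with 5 of 6 past the limit in WT and 6 of 6 in cKO.

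**Figure D2:**
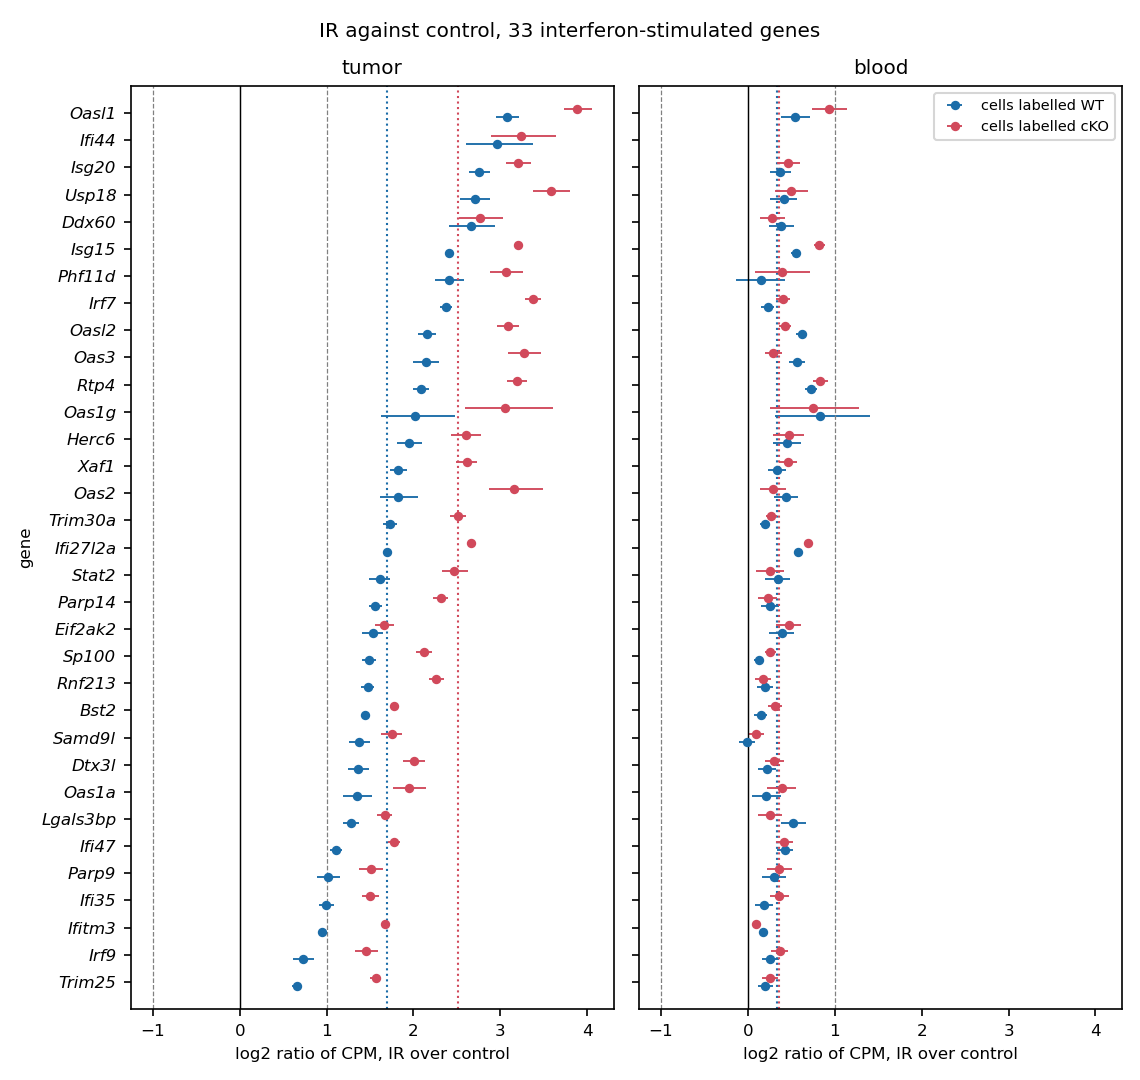
Log2 ratio of IR to control for each member in tumor (left) and blood (right), for cells labelled WT (blue) and cKO (red), with 95% intervals of counting error, dotted lines at the medians of the members and dashed lines at the 2-fold limit. In tumor every point lies above 0 and each red point to the right of its blue one, while in blood no point reaches the limit.

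The IR ratio was larger in cells labelled cKO than in cells labelled WT for all 33 members. The difference of the 2 log2 ratios had a median of 0.73, against −0.032 over all genes, and its counting interval lay above 0 for 30 members. It was widest for Oas2 at 1.33, Oas3 at 1.13 and Rtp4 at 1.10, and its interval included 0 for Ddx60, Eif2ak2 and Ifi44. The control groups enter both this difference and the comparison of labels without irradiation that follows, so the 2 are not separate evidence.

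The next question was how the labels differed in tumors without irradiation. In tumor control, all 32 members with enough UMIs were lower in cells labelled cKO than in cells labelled WT, 5 of them by at least 2-fold and 0 higher, where 1.45% of all genes were past the limit downward and 3.46% upward. These were Oas2 with a log2 ratio of −1.43 (95% interval −1.80 to −1.08), Rtp4 with −1.17 (95% interval −1.31 to −1.03), Irf7 with −1.16 (95% interval −1.26 to −1.06), Oas3 with −1.16 (95% interval −1.39 to −0.94) and Ifi27l2a with −1.09 (95% interval −1.12 to −1.05). The median member was at −0.78, all genes were at 0.11, and the summed module of WT was 1.77 times that of cKO. The members closest to 0 were Eif2ak2 at −0.11, Ddx60 at −0.12 and Lgals3bp at −0.19. Oas1g was not counted, with 97 UMIs in the 2 groups together. The cell makeup differed between the labels in this library: macrophage-like cells were 35.5% of WT and 53.6% of cKO cells, and fibroblast-like cells, which held 1738 and 1785 CPM of the module, 4.67% and 11.98%. When WT was also required to have at least 4 times as much B0301 as B0302, 984 of the 2505 WT cells remained, the median was −0.58 and 1 member was past the limit. Without barcodes that carried hashtags in both tumor matrices the median was −0.82 and 6 were past it.

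After IR the labels lay close together. In tumor IR, 0 of 33 members were past the limit in either direction, where 0.2% of all genes were higher and 0.938% lower, with a median of −0.024 for members and 0.032 for all genes. The ratios of cKO to WT ran from −0.41 for Isg20 to 0.20 for Lgals3bp. Isg15 was at 2112 CPM in WT and 2176 CPM in cKO, and Oasl1 at 206 and 212 CPM.

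**Figure D3:**
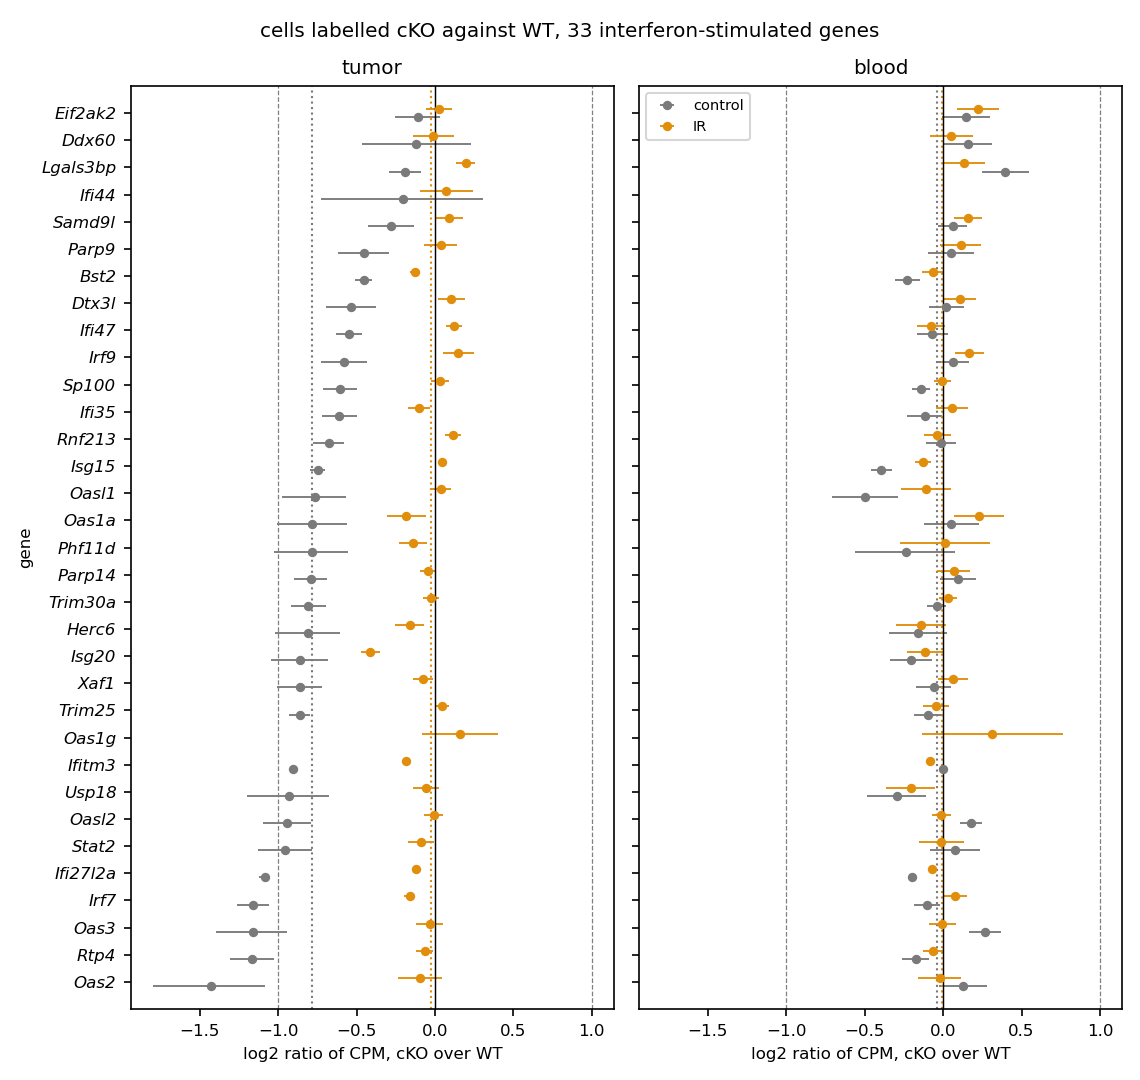
Log2 ratio of cells labelled cKO to cells labelled WT for each member in tumor (left) and blood (right), in control (grey) and IR (orange) libraries, with 95% intervals of counting error and dotted lines at the medians of the members. Members with too few UMIs in a comparison are left out of it. In tumor control all points lie below 0, and in the other 3 libraries they lie on both sides of 0 within the 2-fold limit.

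Cells were grouped by expression after the members, other genes with names of interferon-stimulated families, Ythdf2, Lyz1 and Lyz2 had been set aside. Clusters were named from marker lists, so that members did not define them. Other genes of the interferon pathway, such as Socs1, were not set aside, so a cluster can still reflect an interferon state. In the tumor 5 clusters had too few raised markers to be named. Cluster 4 was led by Tgm2, Havcr2 and Spint1, cluster 6 by Cxcl10, Socs1 and Gbp5, cluster 11 by Ccl3 and G0s2, cluster 12 by the heat shock genes Hspa1a and Hspa1b and by Mmp12, and cluster 10, with a median of 1230 UMIs a cell, by Gm26917 and Gm42418. In tumor control the module was not evenly spread. It took 10875 CPM in cluster 6 of WT, 7639 in cluster 4, 7383 in dendritic cell-like cells, 5565 in cluster 12, 3835 in macrophage-like cells, 2881 in cluster 10, 1738 in fibroblast-like and 1103 in NK cell-like cells. In cKO the order was the same, at 9111, 5803, 5678, 3133, 2416, 1955, 1785 and 889 CPM. The cells labelled cKO thus had more of the macrophage-like cells, which were low in the module, and fewer of clusters 4 (19.6% of WT, 7.64% of cKO cells), 6 (13.5% and 8.95%) and 12 (7.78% and 2.80%), which were higher in it.

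After IR each of these classes in the tumor with at least 50 cells in both libraries stood higher than in control. Macrophage-like cells reached 14606 CPM in WT and 13217 CPM in cKO, cluster 4 18176 and 17841, cluster 6 15423 and 14383, dendritic cell-like cells 14459.6 and 12656, cluster 12 7120 and 9744, cluster 10 7526 and 7410 and NK cell-like cells 3255 and 3241 CPM. Within macrophage-like cells, 31 of 33 members were at least 2-fold higher in IR for WT, median 1.94, where 3.29% of all genes were past the limit upward. For cKO they were 33 of 33, median 2.51, where 4.71% of all genes were. Most of this class lay in cluster 3 after IR, led by Nos2, Cxcl3 and Cfb, and in clusters 5 and 9 in control, led by Cdh1 and MHC class II genes and by Ccl8 and Folr2, so the class was also read cluster by cluster. The median member was then at 1.34, 1.39 and 1.30 in clusters 3, 5 and 9 of WT and at 1.88, 1.80 and 2.11 in those of cKO.

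In cluster 4, 25 of 31 members were past the limit upward in WT, median 1.47, and 29 of 31 in cKO, median 1.83, where 2.22% and 4.34% of all genes were. Cluster 6, already high without irradiation, had a smaller gain than cluster 4, with 10 of 30 and 13 of 30 members past the limit and medians of 0.93 and 0.93, against 1.44% and 1.74% of all genes. In dendritic cell-like cells they were 18 of 28 and 19 of 27, medians 1.18 and 1.43, against 2.48% and 3.61% of all genes. When WT was also required to have at least 4 times as much B0301 as B0302, under 50 of the 174 tumor control WT cells of this class remained. Its WT ratio of IR to control, and its comparison of labels in tumor control, were therefore not recomputed under that rule. Cluster 12 gained little in WT, with 2 of 20 members past the limit and a median of 0.60, where 1.1% of all genes were, and more in cKO, with 21 of 24 and a median of 1.48, where 6.96% were. Isg15 shows the spread: its level in WT went from 377 CPM in control to 2206 CPM in IR in macrophage-like cells, from 753 to 2935 in cluster 4 and from 446 to 1328 in cluster 6. Cluster 11, found almost only in tumor IR and with few UMIs per cell, had the highest module level of any class with at least 50 cells, at 20427 CPM in WT and 20483 CPM in cKO.

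The lower module of cells labelled cKO in tumor control was also present within most classes. The medians over members given here were smaller in size than the −0.78 over all cells. The summed module of cluster 12, however, differed by −0.83 on the log2 scale, as it did over all cells. In macrophage-like cells 5 of 31 members were at least 2-fold lower, where 0.555% of all genes were: Isg20 at −1.62, Oas2 at −1.59, Oas3 at −1.18, Irf7 at −1.15 and Rtp4 at −1.04. The labels filled this class from different clusters, with 194 of 890 WT and 509 of 1150 cKO cells in cluster 9 and 193 and 77 in cluster 3. Within clusters 3, 5 and 9 the members lower by 2-fold were 1 of 18, 1 of 28 and 0 of 23, with medians of −0.58, −0.45 and −0.27, where 0.948%, 0.31% and 0.424% of all genes were. The median member was at −0.57 in macrophage-like cells as a whole, −0.41 in cluster 4, −0.21 in cluster 6, −0.64 in cluster 12 and −0.40 in dendritic cell-like cells, but at 0.12 in fibroblast-like cells. In NK cell-like cells and cluster 10 only 2 members and 1 member were counted. The summed module differed by −0.31 and −0.56 there on the log2 scale, and by 0.039 in fibroblast-like cells. With clustering on all genes the median in macrophage-like cells was −1.0005. Each cluster was then held at the share of gene UMIs, not of cells, that it had in WT. The summed module then differed between the labels by −0.38 on the log2 scale, against −0.83 without this, and by −0.52 when only the shares differed. In the same way the IR ratio of the summed module came to 1.11 of 1.49 in WT and to 1.62 of 2.24 in cKO with the shares of control kept.

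**Figure D4:**
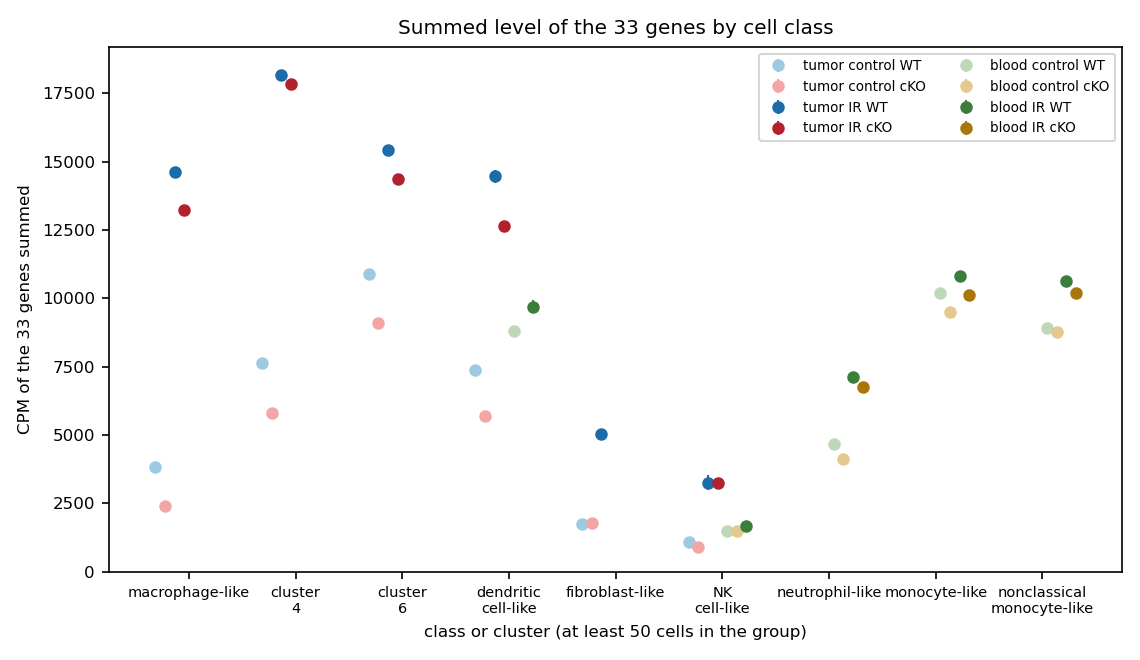
Summed CPM of the 33 members in each cell class and group with at least 50 cells, with 95% Poisson intervals that mostly lie within the points. Blue and red points are tumor, green and brown points blood, and the darker shade is IR. In tumor the IR points of macrophage-like cells lie at 13217 and 14606 CPM against 2416 and 3835 in control, while in blood monocyte-like cells all 4 groups lie between 9498 and 10807.

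In blood, away from the irradiated site, the members differed between IR and control by far less. In cells labelled WT, 0 of 32 members were past the limit, where 0.359% of all genes were past it upward and 0.945% downward, but 31 of the 32 had ratios above 0, with a median of 0.34 against 0.024 for all genes. The exception was Samd9l at −0.009. In cells labelled cKO, 0 of 32 were past the limit, where 0.412% of all genes were higher and 1% lower, and all 32 ratios were above 0, with a median of 0.36 against 0.067. The summed module was 1.25-fold (95% interval 1.24 to 1.26) higher in WT and 1.26-fold (95% interval 1.25 to 1.27) in cKO. Rtp4 was at 117 CPM in control and 193 CPM in IR cells labelled WT, and 104 CPM in control and 185 CPM in IR cells labelled cKO, and Ifi27l2a at 1649 CPM in control and 2449.9 CPM in IR cells labelled WT, and 1438 CPM in control and 2331 CPM in IR cells labelled cKO. For both genes the IR values of blood lay above its control values. Ifi44 was close to absent from blood, with at most 1.25 CPM, and was not counted there.

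Neutrophil-like cells were the largest class of blood. Their summed module was 4677 CPM in control WT, 4118 in control cKO, 7132 in IR WT and 6773 in IR cKO. Here 2 of 29 members were past the limit upward in WT, median 0.55, and 5 of 29 in cKO, median 0.64, where 0.261% and 0.975% of all genes were. The 2 in WT were Herc6 at 1.02 and Xaf1 at 1.14, and the 5 in cKO were Ifi27l2a at 1.56, Rtp4 at 1.26, Isg15 at 1.15, Oasl1 at 1.12 and Usp18 at 1.03. The control cKO cells of this class included cluster 7, of whose 1273 cells 1218 came from that group and which held 3453 CPM of the module. In the other large neutrophil-like clusters, 0 and 1, the cKO calls were absent, at 0 of 27 and 0 of 22 members and medians of 0.17 and −0.0089. In WT they were 2 of 28 and 2 of 27 members, with medians of 0.55 and 0.68. Of all genes, 0.138% and 0.0342% were past the limit upward in cKO and 0.304% and 0.31% in WT. The summed module of these clusters was still higher after IR, with log2 ratios of 0.38 and 0.27 in cKO and 0.62 and 0.67 in WT. In monocyte-like cells, the class that the gate was meant to keep, the module was 10191 and 9498 CPM in control and 10807 and 10117 CPM in IR, WT first, with medians over members of 0.0061 and 0.19. Nonclassical monocyte-like cells had medians of 0.44 and 0.30. Without cluster 7 the median over all blood cells labelled cKO was 0.24, down from 0.36, and the difference between the IR ratios of the labels had a median of −0.085 over members. With cluster 7 that median was 0.081 and 21 of 32 members had the larger ratio in cKO.

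Between the labels in blood, 0 of 31 members were past the limit in control, where 0.697% of all genes were higher in cKO and 1.56% lower, with a median of −0.04 that became 0.089 without cluster 7. In blood IR 0 of 32 were past it, where 0.135% were higher and 0.552% lower, with a median of −0.0058. Oas3, which in tumor control was lower in cKO, was at 72.0 CPM in WT and 86.6 CPM in cKO in blood control and at 106 and 106 CPM in blood IR.

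Tumor and blood cells labelled WT were set side by side, although tissue, library and cell makeup cannot be told apart in this comparison. Without irradiation 3 members were at least 2-fold higher in tumor, Lgals3bp at 1.21, Bst2 at 1.09 and Trim25 at 1.08, and 8 were lower, from Ddx60 at −2.30 to Ifi27l2a at −1.09, where 19.5% of all genes were past the limit upward and 15.6% downward. The median member was at −0.28, and at 0.16 when each cell was counted equally. The 8 included Oas2, Oas3 and Oasl2 of the OAS family, Sp100, Trim30a and Samd9l. With irradiation 18 members were higher in tumor and 0 lower, median 1.29, where 15.7% of all genes were higher and 16.3% lower. Of the 8 that were lower in tumor without irradiation, all then lay within 2-fold of blood, for example Ddx60 at −0.03 and Oas3 at −0.049, while Phf11d at 3.26, Isg15 at 2.74 and Oasl1 at 2.64 stood well above it.

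Members differed in which blood cells carried them. Bst2 stood at 10.1 CPM in neutrophil-like and 245 CPM in monocyte-like cells of blood control WT, and Lgals3bp at 1.64 and 47.3 CPM. Oasl2 went the other way, at 268 CPM in neutrophil-like and 82.3 CPM in monocyte-like cells, and so did Isg15, at 332 and 169.6 CPM. Ifitm3 was the leading member of monocyte-like cells at 5322 CPM. The blood part of the module is thus a sum over cells that use different members of it. Across 50 points, each a class in a group with at least 50 cells, the gene whose log level ran most like the mean of the other members was Irf7 (Pearson r = 0.936), followed by Rnf213 (0.905), Oas1g (0.888) and Usp18 (0.880), and the least alike were Lgals3bp (0.288), Samd9l (0.369) and Sp100 (0.378). These points share libraries and depth, and the correlations are a description.

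To see how the module was spread over single cells, each cell was thinned to 1000 gene UMIs, and the 457 shallower cells were left out. In tumor control 87.0% of WT and 80.3% of cKO cells then had a UMI of at least 1 member, against 98.1% and 97.4% after IR. In blood these shares were 92.3% and 94.8% without irradiation and 96.5% and 97.2% with it. The median tumor cell held 4 member UMIs per 1000 in WT and 2 in cKO without irradiation, and 13 and 12 with it. The median blood cell held 4 in both labels without irradiation and 7 in both with it. In macrophage-like cells the median was 2 and 2 in control and 13 and 11 in IR, and the cell at the 90th percentile held 9 and 5 in control and 31 and 28 in IR, so that the middle and the upper end of the cells both lay higher after IR. Isg15 was found in 20.6% of WT and 15.3% of cKO macrophage-like cells in control and in 64.4% and 61.5% in IR, and Irf7 in 8.45% and 4.45% in control and 44.9% and 37.6% in IR. NK cell-like cells, the class with the lowest summed module of those given in the same libraries, had Isg15 in 7.26% and 5% in control and 11.3% and 18.4% in IR. The part of free RNA in these shares was not tested. Before thinning, median UMIs per cell over the whole groups of tumor cells ran from 6037 to 8527.

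**Figure D5:**
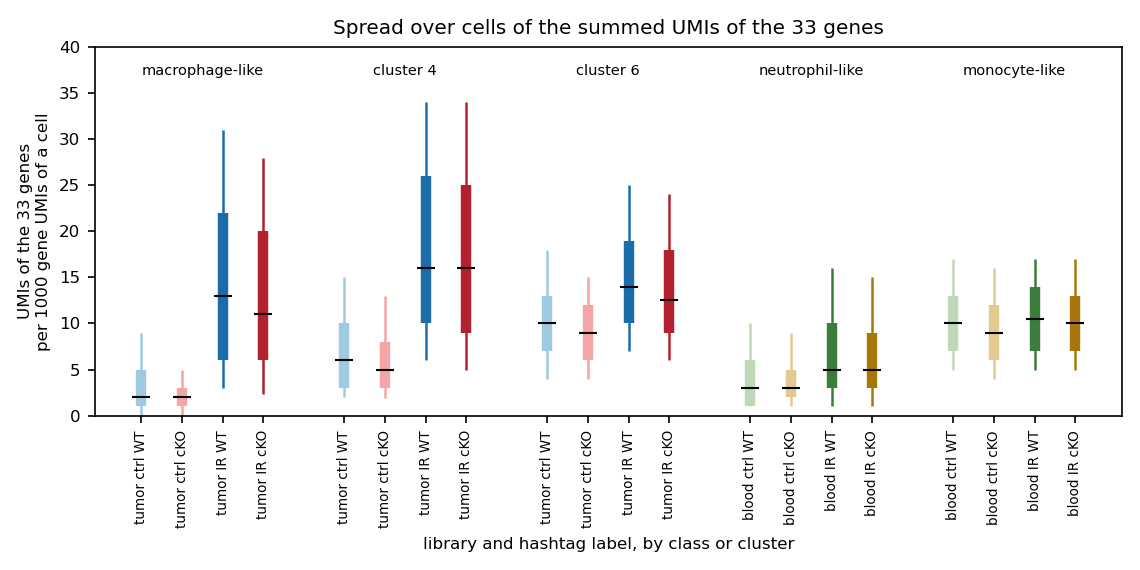
Member UMIs per 1000 gene UMIs in single cells after thinning, by class and group, with a thin line from the 10th to the 90th percentile, a bar from the lower to the upper quartile and a black dash at the median. In macrophage-like cells of WT the dash is at 2 in control and 13 in IR, and in monocyte-like cells of blood it is between 9 and 10.5 in all 4 groups.

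The rest of the interferon pathway was read from fixed lists. Among the receptors and signal transducers, the feedback inhibitor Socs1 had a log2 ratio of IR to control in tumor of 0.69 in WT and 1.17 in cKO and the kinase Jak2 of 0.42 and 1.02, so that both were past the limit in cKO and short of it in WT. The receptor chain Ifnar1 was at 0.28 and 0.67 and Ifnar2 at −0.023 and 0.51 in WT and cKO. Other antiviral families stood higher after IR too. IFIT genes, which bind viral RNA caps, were past the limit upward for 5 of 5 in WT and 5 of 5 in cKO, medians 3.08 and 4.36, and Rsad2 (viperin) with its neighbor Cmpk2 had medians of 2.77 and 4.20. The guanylate-binding proteins, which answer most to interferon gamma, had 0 of 8 past the limit in WT and 8 of 8 in cKO, medians 0.82 and 1.26. In tumor control the IFIT genes were past the limit downward in cKO for 3 of 5, median −1.002, and the GBP genes for 0 of 8, median −0.57.

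Interferon transcripts themselves were rare, and did not follow the module. Ifnb1, the interferon beta gene, had 24 UMIs in 13 cells of tumor control WT, 101 UMIs in 24 cells of tumor control cKO, 6 UMIs in 5 cells of tumor IR WT and 40 UMIs in 7 cells of tumor IR cKO. Its UMIs were thus fewer after IR than in control in both labels. A single cell held 33 of the UMIs of tumor control cKO, and another 26 of those of tumor IR cKO. Ifng, the interferon gamma gene, had 320 UMIs in WT and 36 in cKO cells of control tumors, and 192 and 175 of irradiated tumors. In both WT groups 1 cell held most of these, with 187 of the 320 and 134 of the 192, and in cKO 1 cell held 15 of the 36 and 66 of the 175. The cells with an Ifng UMI numbered 47 and 14 in control and 18 and 35 in IR, WT first. In blood Ifnb1 had at most 1 UMI a group. Of the 21 ligand genes, 17 to 19 were at 0 UMIs in each group, and a count of 0 allows up to 0.124 to 0.163 CPM. Interferon made by cells outside the sort was not measured.

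The response element in the promoter windows did not part the members by size of change. After IR in tumor the 10 members with the core match had a median log2 ratio of 1.67 in WT and 2.49 in cKO, and the 17 with a window but no match 1.49 and 2.26. The ranges overlapped over most of their width, from 0.95 to 2.66 with the match and from 0.65 to 3.08 without it in WT. Isg15, Oas3 and Ddx60, whose stretches are shown, had ratios of 2.41, 2.14 and 2.66, and Oasl1, with no match in its window, 3.08.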

How the data were processed

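Sorted tumor and blood myeloid cells were profiled by 3′ droplet sequencing with hashtag antibodies, in 4 libraries and 8 groups of library and label. The authors aligned the reads to mm10 with Cell Ranger (version 6.0.1 in the submitters' processing notes, which also name Seurat 4.0.6), and the deposited matrices hold raw UMI counts of all barcodes, with 32285 genes and 2 hashtags, not filtered or normalized. Depth was 51653956 to 87703837 gene UMIs per matrix. Intervals cover counting error only.

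Barcodes were called as cells by an order-of-magnitude threshold plus a test of smaller barcodes (at least 500 UMIs) against the free RNA profile, and kept with at least 200 genes and at most 25% mitochondrial UMIs. The 6% with the highest Scrublet-type doublet score in a library were removed as doublets. Labels followed the hashtag rule in the report. Cells were clustered with leidenalg 0.10.2 (2000 variable genes, 40 components, Leiden resolution 1.0) after 172 genes had been left out. These were the members, genes matched by the name stems of interferon-stimulated families, Lyz1, Lyz2 and Ythdf2. The match by name also took in genes such as Parp1. Clusters were named from at least 3 raised markers. UMIs were summed per group and scaled to CPM. With 1 sample a group, no p-values were computed. Ratios carry exact conditional binomial intervals, levels Poisson intervals and shares Clopper-Pearson intervals. The code was tested on simulated data. Alternatives covered hashtag rules (Seurat 5.3.0 HTODemux among them), cell calling, doublets, scaling (edgeR 4.0.16 TMM), limits and clustering.

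All 33 analysed members were described: in each comparison those past the limit by log2 ratio and the others by range and count. The members and lists were chosen with earlier results of these data known. Mx1 and Mx2 were not analysed here. Values of 1 other gene of the fixed signalling list, and the counts and medians of that list, are not reported here.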

Additional observations from a re-analysis of the deposited data

Results flagged for a closer look

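Barcodes that carried no hashtags in the tumor control matrix entered no group from it. They held a high level of the module there, at 13889.5 CPM against 3810 CPM in the barcodes with hashtags. In the tumor IR matrix the order was the opposite, at 3856 CPM without and 13630 CPM with hashtags. Nearly all of these barcodes carried hashtags in the other tumor matrix, and what put them in both was not tested.

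Oas3 differed between the labels in opposite directions in the 2 tissues, with a log2 ratio of cKO to WT of −1.16 in tumor control and 0.27 in blood control. Each value rests on 1 sample a group, and the difference between tissues was not tested.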

How the results depend on the processing

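No paired analysis was possible because each group was 1 sample, and for the same reason no replicate could be left out. Of 96 member ratios past the limit, recomputed 1259 times under the alternatives, 1259 kept their sign and 16 fell short of the limit. Of 520 recomputed medians, counts, shares and summed ratios, 475 stayed within their tolerance (for a median, its 95% order-statistic interval over members), and 45 moved. In 14 of the 520 a median changed sign, and these medians lay between −0.28 and 0.081 as reported, inside the 2-fold limit. After IR in tumor the median member ran from 1.54 to 1.87 in WT and from 2.26 to 2.71 in cKO.

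The values that moved were these, and where no alternative shows the cause it was not tested. For cKO against WT in tumor control, the symmetric margin on hashtags gave a median of −0.58 and 1 member lower, each cell counted equally gave 2 lower and TMM 8. After IR in blood, each cell counted equally gave a median of 0.45 in WT with 1 member higher, and 1 higher in cKO. A minimum of 20 UMIs gave 1 member higher after IR in blood cKO, and 1 higher for cKO against WT in blood IR. Without cluster 7, chosen after seeing the data, the medians were 0.24 after IR in blood cKO, 0.089 for the labels in blood control and −0.085 for the difference of IR ratios in blood, and with each cell counted equally the last 2 were 0.042 and −0.0069. That difference in tumor was 0.55 with the margin, 0.55 in named myeloid clusters and 0.58 with each cell counted equally. For tumor against blood, named myeloid clusters gave 13 lower in control, each cell counted equally 7 higher and a median of 0.16 in control and a median of 1.58 with IR, and TMM 1 higher in control. Clustering with all genes gave medians in macrophage-like cells of 1.44 after IR in WT and −1.0005 between the labels in tumor control, and in monocyte-like cells −0.19 between the labels in blood control, against −0.16 at resolution 1.5. With cluster shares of UMIs kept, also added after seeing the data, the summed ratios were −0.38 and −0.059 between the labels in tumor control and IR, 1.11 and 1.62 after IR in tumor and 0.27 and 0.27 in blood, WT first.

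The share of cells with a member UMI, thinned to 2000 UMIs and without thinning (over different cells, since thinning left out the shallower ones), was 96.2% and 98.2% in tumor control WT, 93.5% and 98.5% in tumor control cKO, 99.6% and 99.6% in tumor IR WT, 99.4% and 99.3% in tumor IR cKO, 98.3% and 98.7% in blood control WT, 98.9% and 99.5% in blood control cKO, 99.2% and 99.6% in blood IR WT and 99.5% and 99.7% in blood IR cKO. The spread between mice was not measured.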
